A study of Mus musculus with 2 samples.

Results

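The proteasome and immunoproteasome genes are the 51 mouse genes that have a protein-coding transcript and a symbol beginning with Psma, Psmb, Psmc, Psmd, Psme, Psmf or Psmg, together with Pomp. They were taken from 21951 protein-coding genes among 55450 annotated genes. The rule used names only and no measured value, although it was set with earlier results of these data known. Of the 51 genes, 50 encode subunits, activators, an inhibitor or assembly factors of the proteasome. The remaining gene, Psmc3ip, is named for an interaction with an ATPase subunit, and its product is known from homologous recombination in meiosis.

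The proteasome is the protease complex that degrades proteins tagged with ubiquitin. Its barrel-shaped core particle is built from outer alpha rings and inner beta rings, and a regulatory particle of ATPases and non-ATPase subunits unfolds the substrate and feeds it into the barrel. In cells exposed to interferon, and constitutively in many blood cells, the catalytic beta subunits encoded by Psmb5, Psmb6 and Psmb7 are replaced in newly built cores by the inducible subunits of Psmb8, Psmb9 and Psmb10, which gives the immunoproteasome, a source of peptides for MHC class I molecules.

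Total RNA came from neutrophils of the peripheral blood of adult C57BL/6J mice aged 5 to 6 weeks, with no treatment or genetic change named in the labels. There were 2 libraries, biological replicates 1 and 2 of a single group, both made with the ScriptSeq v2 kit from 100 ng of RNA. They carry the same donor identifier, and the number and sex of the animals are not given, so the spread between them may be technical. With 1 group there was no condition to test, and every comparison below is between genes within the libraries or between the libraries.

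Depth was 22647028 expected counts for replicate 1 and 21471719 for replicate 2. Levels are TPM, which divides by transcript length and scales each library to the same total, and protein-coding genes together took 8.98% of all TPM in replicate 1 and 8.51% in replicate 2, so the levels of single protein-coding genes are small numbers on this scale. The 12 neutrophil markers were all detected, with a median of 50.01 TPM in replicate 1 and 49.9 TPM in replicate 2. They were led by S100a9 at 1123 and 1275 TPM and S100a8 at 786 and 712 TPM, and Ly6g was lowest at 1.91 and 2.29 TPM. RNA of other blood cells was present as well. All 12 B cell markers were detected, with medians of 44.7 and 39.0 TPM and summed levels of 757 and 678 TPM, against summed levels of 2557 and 2587 TPM for the neutrophil markers. Most of the neutrophil sums came from S100a8 and S100a9, and the medians of these lists lay closer together than the sums. Of the red cell markers 5 of 8 were detected, with summed levels of 4329 and 4264 TPM, and of the T cell, monocyte and platelet markers 9 of 10, 7 of 8 and 5 of 7, with summed levels between 24.5 and 34.6 TPM. The red cell factor Klf1 had 0 counts in replicate 1, and no marker of any list was at 0 counts in both libraries. B cells and monocytes also transcribe proteasome genes, the immunoproteasome subunits included. The share of each level below that came from cells other than neutrophils was not tested, and in bulk RNA fewer cells of a type and less RNA per cell cannot be told apart.

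The core of the proteasome was transcribed throughout. The mark used here for a detected gene, 1 TPM or more in each library, was reached by 45 of the 51 genes (88.2%), against 35.0% of all protein-coding genes. The median over the 51 genes was 5.99 TPM in replicate 1 and 6.18 TPM in replicate 2, against 0.13 and 0.11 TPM over all protein-coding genes. Among detected genes alone the gap was smaller, with medians of 7.10 and 6.65 TPM for the proteasome genes and 4.43 and 4.16 TPM for all protein-coding genes. On the log2(TPM + 1) scale the median proteasome gene stood at 2.82 ± 0.03 (SD, n = 2). Together the 51 genes held 39608 and 38454 expected counts, or 0.239% and 0.249% of the counts of protein-coding genes. The 6 genes below the mark in at least 1 library were Psma8, Psmb11, Psmc3ip, Psmf1, Psmg1 and Psmg3.

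**Figure D1:**
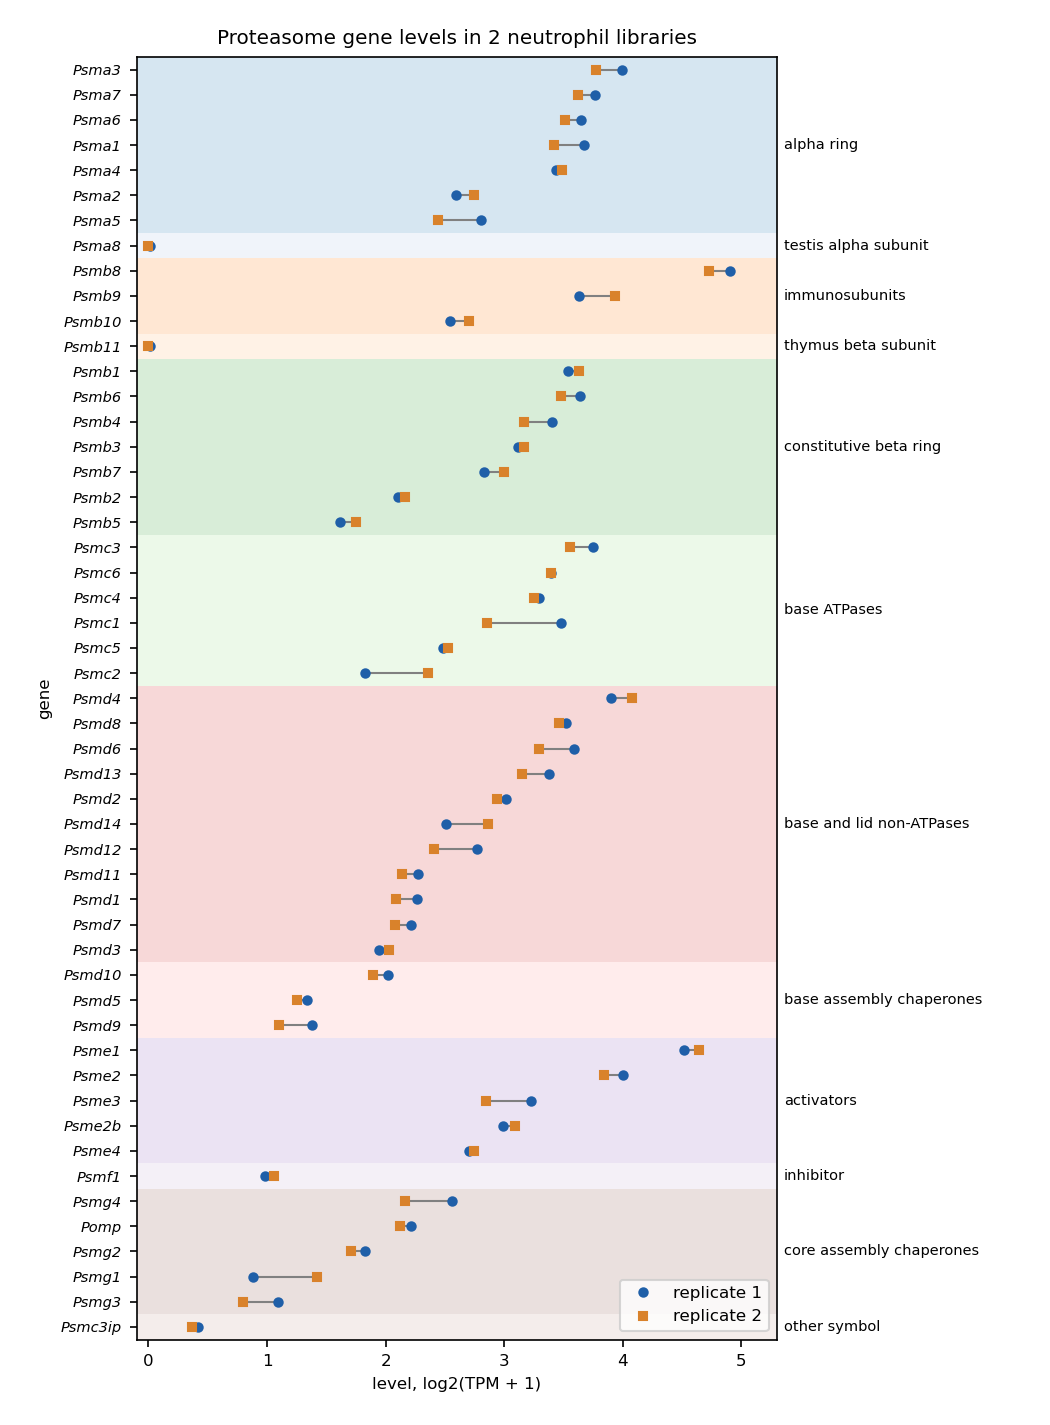
Levels of the 51 genes as log2(TPM + 1), with genes grouped by role down the page and ordered by mean TPM within a role; circles are replicate 1, squares are replicate 2 and a grey line joins the libraries of 1 gene. Psmb8 and Psme1 lie farthest to the right, and Psma8, Psmb11 and Psmc3ip lie at or near 0.

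The inducible catalytic subunits were unequal. Psmb8 had the highest level of all 51 genes in the main table, and its excess over its constitutive partner was the largest of the 3 pairs, whereas Psmb9 stood near its partner and Psmb10 below its partner. Psmb8, which replaces the chymotrypsin-like subunit, reached 28.9 TPM in replicate 1 and 25.4 TPM in replicate 2, from 2578 and 2426 expected counts. Psmb5, the constitutive chymotrypsin-like subunit, reached 2.06 and 2.37 TPM, from 148 and 173 expected counts, the lowest level of the 7 constitutive beta genes. The ratio of Psmb8 to Psmb5 in TPM was 14.0 in replicate 1 and 10.7 in replicate 2. On the log2(TPM + 1) scale the difference was 3.13 ± 0.22 (SD, n = 2), many times the spread between the libraries. The top rank of Psmb8 depended on the table. In a further deposited gene table, on the older GENCODE M4 models, Psmb8 had 22.98 and 20.1 TPM and Psme1 had 22.1 and 24.5 TPM, and with protein-coding transcripts alone Psmb8 had 15.2 and 10.2 TPM and Psme1 had 17.3 and 16.8 TPM.

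The other pairs were closer. Psmb9, which replaces the caspase-like subunit, had 11.4 and 14.3 TPM, and its partner Psmb6 had 11.4 and 10.1 TPM. The order of this pair differed between the libraries, with log2 differences of -0.01 in replicate 1 and 0.46 in replicate 2, and their mean of 0.23 ± 0.33 (SD, n = 2) was smaller than its spread. The interval that the authors deposited for each TPM, whose level is not given in the sources used here, ran from 10.1 to 12.5 TPM for Psmb9 and from 10.5 to 12.2 TPM for Psmb6 in replicate 1, which overlap. In replicate 2 it ran from 12.9 to 15.6 TPM for Psmb9 and from 9.25 to 10.8 TPM for Psmb6, which do not. Psmb10, which replaces the trypsin-like subunit, had 4.83 and 5.52 TPM, and its partner Psmb7 had 6.11 and 6.98 TPM. Psmb10 was lower than Psmb7 in both libraries, by a log2 difference of -0.29 ± 0.0037 (SD, n = 2). The deposited intervals of this pair overlapped narrowly in both libraries, at 4.09 to 5.62 TPM for Psmb10 and 5.54 to 6.51 TPM for Psmb7 in replicate 1. This difference was -1.11 in the M4 gene table and -0.52 in a deposited table made without alignment, called alignment-free here.

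Averaged over the 3 pairs, the inducible subunits exceeded the constitutive ones by a log2 difference of 1.02 ± 0.03 (SD, n = 2). The single pairs of Psmb8 and Psmb9 spread more than this mean, because their shifts between the libraries partly cancelled. From replicate 1 to replicate 2 the Psmb8 difference fell from 3.29 to 2.97, and the Psmb9 difference rose from -0.01 to 0.46. All of that mean came from Psmb8 against Psmb5, since the differences of the other pairs, 0.23 and -0.29, nearly cancelled. In the M4 gene table the mean was 0.62. The summed level of the inducible subunits was 45.1 TPM in replicate 1 and 45.3 TPM in replicate 2, and that of the constitutive partners was 19.6 and 19.5 TPM. The inducible share of these sums was 69.7% and 69.9%, or 69.8% ± 0.17 (SD, n = 2). Here too a fall of Psmb8 and a rise of Psmb9 from replicate 1 to replicate 2 lie behind the small SD. These are shares of transcripts, and B cell and monocyte RNA adds to both sums by an amount that was not tested.

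**Figure D2:**
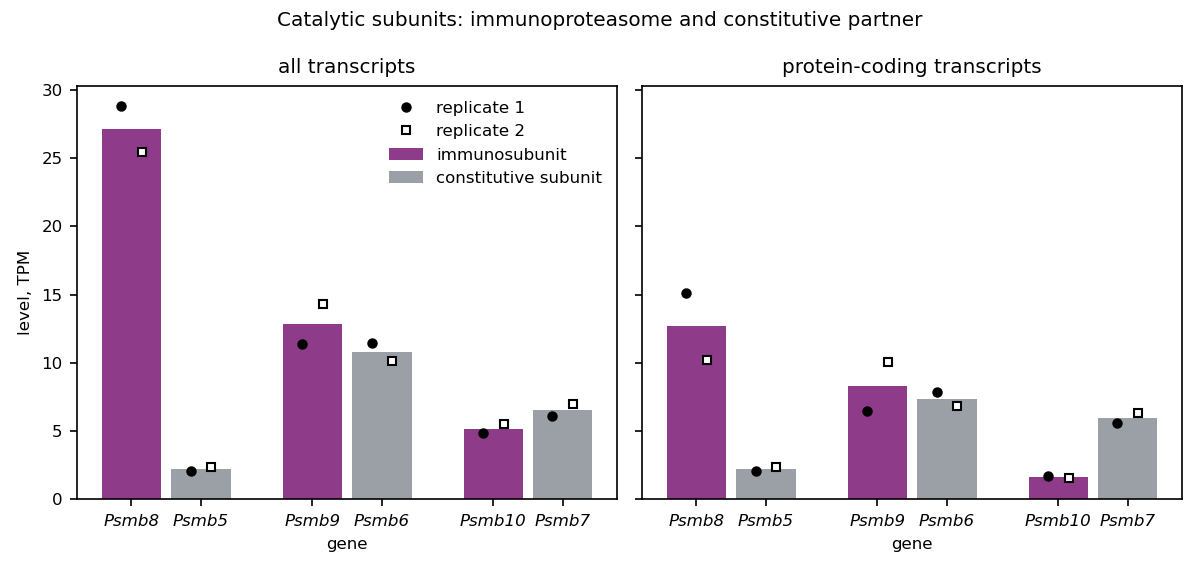
Levels in TPM of the 3 inducible catalytic subunits and their constitutive partners, with all transcripts of a gene on the left and protein-coding transcripts alone on the right; bars are means of 2 libraries, circles replicate 1 and squares replicate 2. Psmb8 stands above Psmb5 in both panels, while Psmb10 falls to 1.68 and 1.58 TPM once other transcripts are left out.

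Much of the inducible signal lay in transcripts that the annotation does not call protein coding. For Psmb8, transcripts annotated with a retained intron, a class that keeps an intron in the spliced RNA, took 47.5% of the TPM in replicate 1 and 59.9% in replicate 2. Whether the reads assigned to this class came from spliced RNA was not tested. The leading coding transcript, Psmb8-203 of 840 bases, had 14.4 and 9.64 TPM, and the retained-intron transcript Psmb8-205 of 1234 bases had 10.1 and 10.8 TPM. For Psmb10, non-coding transcripts took 65.3% and 71.4% of TPM. Psmb5 has only coding transcripts in the annotation, so its level was wholly coding in both libraries by construction. For Psmb9 the coding transcript Psmb9-202, which has only 433 bases, carried 5.40 and 8.83 TPM on 141 and 238 expected counts, while the full-length coding transcript Psmb9-204 of 1352 bases carried 1.00 and 1.22 TPM on 116 and 143 expected counts. The higher Psmb9 level of replicate 2 thus lay in a short transcript, where few counts give a high TPM.

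With protein-coding transcripts alone, a setting chosen after seeing the data, Psmb8 had 15.2 and 10.2 TPM and Psmb5 had 2.06 and 2.37 TPM, a log2 difference of 2.07 ± 0.47 (SD, n = 2). Psmb9 had 6.48 and 10.1 TPM and Psmb6 had 7.87 and 6.85 TPM, a difference of 0.12 ± 0.52. Psmb10 had 1.68 and 1.58 TPM and Psmb7 had 5.56 and 6.29 TPM, a difference of -1.40 ± 0.15. The mean over the pairs was then 0.27 ± 0.03, an SD below those of the single pairs because their shifts between the libraries partly cancelled. The inducible share of the sums was 60.1% in replicate 1 and 58.5% in replicate 2. The order of the pairs, with Psmb8 far above its partner and Psmb10 below its partner, was the same for coding transcripts as for all transcripts. Psmb5 has no annotated non-coding transcript, so its level could not fall in this setting as that of the other genes could.

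The 3 pairs are related genes, and their coding sequences are far enough apart for reads to be told apart over most of their length. Identity over aligned coding bases was 67.9% for Psmb8 and Psmb5, 66.2% for Psmb9 and Psmb6 and 63.3% for Psmb10 and Psmb7. The most alike stretch of 60 bases of each pair is shown, as the place where a read would be hardest to assign. Capitals mark the bases that differ within a pair, and the sequences run 5′ to 3′ on the coding strand, from the GENCODE M21 transcripts. Positions count from the first base of the coding sequence, at 499 to 558 in Psmb8 and 460 to 519 in Psmb5, 419 to 478 in Psmb9 and 461 to 520 in Psmb6, and 220 to 279 in Psmb10 and 232 to 291 in Psmb7.
Psmb8: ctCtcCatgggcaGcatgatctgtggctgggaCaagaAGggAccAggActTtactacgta
Psmb5: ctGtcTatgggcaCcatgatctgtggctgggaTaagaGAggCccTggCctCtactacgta
Psmb9: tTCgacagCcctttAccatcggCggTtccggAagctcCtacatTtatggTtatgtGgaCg
Psmb6: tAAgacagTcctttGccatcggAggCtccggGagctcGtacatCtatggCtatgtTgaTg
Psmb10: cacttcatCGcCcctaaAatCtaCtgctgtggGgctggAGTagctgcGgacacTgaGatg
Psmb7: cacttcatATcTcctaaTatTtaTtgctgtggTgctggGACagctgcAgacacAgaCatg
Even in these stretches the pairs differed at 10 of 60 bases for Psmb8 and Psmb5, at 12 of 60 for Psmb9 and Psmb6 and at 13 of 60 for Psmb10 and Psmb7. No stretch of Psmb8, Psmb9 or Psmb10 matched its partner at 95% identity over 100 bases.

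Position sets Psmb8 and Psmb9 apart from the other 4 genes. On GRCm38 both lie in the MHC class II region of chromosome 17, Psmb9 at chr17:34181987-34187764 on the minus strand and Psmb8 at chr17:34197721-34201454 on the plus strand, with Tap1, a subunit of the peptide transporter of the class I pathway, between them at chr17:34187553-34197225. Psmb9 and Tap1 overlap by 212 bases on opposite strands. The strand setting of the counting is not given in the sources used here, so whether reads there were assigned by strand is not known. Tap2, the partner of Tap1 in the transporter, follows 2072 bases after Psmb8. Psmb10 lies at chr8:105935735-105938444, Psmb5 at chr14:54614119-54618022, Psmb6 at chr11:70525367-70527858 and Psmb7 at chr2:38588036-38644087. Tap1 had 19.0 and 19.1 TPM and Tap2 had 9.65 and 8.76 TPM, both below Psmb8 in each library.

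Start-site sequences of 300 bases, 250 before and 50 after the RefSeq start on GRCm38.p6, were found for 43 of the 51 genes. They were searched on both strands for 4 short patterns, with any match a matter of letters and no measure of binding. Psmb8, Psmb5 and Psmb9 are printed because they are the inducible and constitutive ends of the largest pair difference and the gene that shares its start region with Tap1. In Psmb8 (chr17:34197945-34198244, plus strand) the capitals mark TTCNNNGAA, the letters of an interferon-gamma-activated site, 97 bases before the start. In Psmb5 (chr14:54617946-54618245, minus strand) they mark TGACNNNGC, the core letters of an antioxidant response element, 47 bases before the start. In Psmb9 (chr17:34187281-34187580, minus strand) they mark a CCAAT box on the opposite strand, 8 bases before the start.
Psmb8: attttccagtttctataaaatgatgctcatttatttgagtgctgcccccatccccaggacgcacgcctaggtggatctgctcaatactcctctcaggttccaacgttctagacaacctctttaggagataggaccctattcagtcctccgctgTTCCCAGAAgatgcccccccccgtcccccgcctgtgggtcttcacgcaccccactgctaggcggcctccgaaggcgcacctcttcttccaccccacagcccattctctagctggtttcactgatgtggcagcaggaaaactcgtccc
Psmb5: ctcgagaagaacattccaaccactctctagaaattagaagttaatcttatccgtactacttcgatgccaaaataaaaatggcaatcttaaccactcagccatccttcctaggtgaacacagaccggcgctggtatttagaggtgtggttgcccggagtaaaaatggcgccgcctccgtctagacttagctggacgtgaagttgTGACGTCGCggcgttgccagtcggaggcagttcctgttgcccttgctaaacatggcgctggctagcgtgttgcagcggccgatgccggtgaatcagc
Psmb9: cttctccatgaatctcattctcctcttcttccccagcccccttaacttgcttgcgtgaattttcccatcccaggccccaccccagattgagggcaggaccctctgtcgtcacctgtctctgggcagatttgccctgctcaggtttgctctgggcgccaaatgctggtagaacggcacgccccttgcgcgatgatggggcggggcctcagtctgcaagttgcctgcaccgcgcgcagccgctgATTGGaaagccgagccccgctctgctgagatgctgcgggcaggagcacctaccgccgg
TTCNNNGAA was present for 3 of the 43 genes, Psmb8, Psmd2 and Psmg1, and in 8.30% of all 32851 start-site windows. TGACNNNGC was present for 6 genes, Psmb5, Psmb6, Psmc6, Psmd9, Psmd12 and Psme4, and in 12.4% of windows. CCAAT was present for 15 genes and in 37.4% of windows. GAAANNGAA, the half-repeat of an interferon-stimulated element, was present for 8 genes, Psmb3, Psmb4, Psmc2, Psmd4, Psmd9, Psme1, Psmg4 and Pomp, and in 8.56% of windows. None of Psmb8, Psmb9 and Psmb10 had GAAANNGAA in this window. The windows of Psmb8 and Psmb9 lie wholly inside their annotated genes, so bases upstream of these genes were not searched.

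The alpha ring genes lay close together. All 7 alpha ring genes, which form the gate of the barrel, were detected, with a median of 11.5 TPM in replicate 1 and 10.2 TPM in replicate 2. By mean, Psma3 was highest at 14.9 and 12.7 TPM, followed by Psma7 at 12.6 and 11.3 TPM and Psma6 at 11.5 and 10.4 TPM. Psma5 was lowest by mean at 5.99 and 4.43 TPM, next to Psma2 at 5.02 and 5.70 TPM, and the order of these 2 genes differed between the libraries. Psma1 and Psma4 lay between by mean, at 11.7 and 9.73 TPM and at 9.83 and 10.2 TPM, and Psma1 was above Psma6 in replicate 1. The SD of the log2 levels among the 7 genes was 0.52 in replicate 1 and 0.50 in replicate 2, against 0.77 and 0.69 among the 7 constitutive beta genes. With protein-coding transcripts alone it was 0.34 and 0.92 among the alpha genes, against 0.62 and 0.60 among the beta genes, so the order of the sets turned in replicate 2, where the coding level of Psma3 was 0.84 TPM. Psma8, the alpha subunit of the testis proteasome, had 1 count in replicate 1 and none in replicate 2. There a count of 0 allows up to 0.0343 TPM by counting error alone, and the deposited interval ran from 0.0332 to 0.236 TPM.

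Psma3 carries an uncertainty of its own. The processed pseudogene Gm13835 matches 685 bases of a Psma3 transcript at 100% identity and was assigned 376 expected counts in replicate 1 and 512 in replicate 2, against 1271 and 1150 for Psma3. The coding transcript Psma3-204 had 371 expected counts in replicate 1 and 14.1 in replicate 2. The coding level of Psma3 therefore stood at 6.29 TPM in replicate 1 and 0.84 TPM in replicate 2, although the level of the whole gene differed little. How reads of this sequence were shared between the gene and the pseudogene is uncertain. Psma4 has a similar copy, Gm6542, at 96.8% identity, with 76.8 and 98.9 expected counts.

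The constitutive beta ring was also detected in full. Psmb1, a non-catalytic beta subunit, had 10.6 and 11.4 TPM, close to the catalytic Psmb6. Psmb4, another non-catalytic subunit, had 9.55 and 7.98 TPM. Psmb3 and Psmb2 had 7.65 and 7.96 TPM and 3.29 and 3.49 TPM. Only Psmb5 was lower than Psmb2 within this ring. Psmb11, the catalytic subunit of the thymus proteasome, lies 3410 bases from Psmb5 and had 5 counts in replicate 1 and none in replicate 2 in the main table. There a count of 0 allows up to 0.0136 TPM by counting error alone, and the deposited interval reached 0.0754 TPM. The alignment-free table gave Psmb11 70.8 and 78.9 estimated counts and 0.226 and 0.243 TPM, so its level depended on the table and stayed below 1 TPM in both.

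In the regulatory particle all 17 subunit genes covered here were detected. The 6 ATPases of the base, which unfold the substrate, had a median of 9.16 TPM in replicate 1 and 7.40 TPM in replicate 2. By mean, Psmc3 was highest at 12.4 and 10.8 TPM, followed by Psmc6 at 9.52 and 9.54 TPM and Psmc4 at 8.80 and 8.55 TPM. Psmc2 was lowest at 2.55 and 4.12 TPM, and Psmc5 had 4.60 and 4.75 TPM. Psmc1, at 10.2 and 6.24 TPM, stood above Psmc6 and Psmc4 in replicate 1 and below both in replicate 2. The ATPase ring holds its subunits in equal number, and the transcript levels of the highest and lowest of the 6 genes differed by more than the gap between the libraries for either gene.

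The 11 non-ATPase genes of the base and lid had a median of 5.83 TPM in replicate 1 and 6.29 TPM in replicate 2. Psmd4, a ubiquitin receptor, was highest at 14.0 and 15.9 TPM. The lid subunit Psmd8 had 10.5 and 10.02 TPM and the lid subunit Psmd6 had 11.0 and 8.79 TPM. Psmd14, the deubiquitinase of the lid, had 4.71 and 6.29 TPM, and its structural partner Psmd7 had 3.64 and 3.23 TPM. The large scaffold subunits of the base, Psmd2 and Psmd1, had 7.10 and 6.65 TPM and 3.82 and 3.24 TPM. Psmd3 was lowest by mean at 2.85 and 3.08 TPM, and Psmd11, Psmd12 and Psmd13, the remaining lid genes, lay between 3.39 and 9.41 TPM.

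Genes for assembly of the complex were among the lower ones. The chaperones of the base, Psmd10, Psmd5 and Psmd9, had 3.05 and 2.72 TPM, 1.52 and 1.39 TPM, and 1.60 and 1.15 TPM. Of the 5 genes for core assembly, Psmg4 had 4.88 and 3.47 TPM, the maturation protein Pomp had 3.63 and 3.34 TPM and Psmg2 had 2.55 and 2.26 TPM. Psmg1 and Psmg3, which act with Psmg2 and Psmg4 in alpha ring assembly, each fell below a TPM of 1 in 1 library, with 0.84 and 1.68 TPM for Psmg1 and 1.13 and 0.74 TPM for Psmg3. In both libraries of the main table all 8 assembly genes were lower than every alpha ring gene, although the deposited intervals of Psmg4 (4.15 to 5.61 TPM) and Psma2 (4.52 to 5.35 TPM) overlapped in replicate 1. In the M4 gene table Pomp had 7.42 and 6.31 TPM, above Psma5 at 6.06 and 4.48 TPM. The medians were 1.60 and 1.39 TPM for the base chaperones and 2.55 and 2.26 TPM for the core assembly genes. Psmf1, an inhibitor of the core in vitro, was at the mark with 0.98 and 1.08 TPM, and Psmc3ip had 0.34 and 0.29 TPM.

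The activators that cap the core in place of the regulatory particle covered a wide range, with the interferon-inducible pair at the top. Psme1 and Psme2 encode PA28 alpha and beta, the interferon-inducible cap, and Psme3 encodes PA28 gamma, its nuclear counterpart. Psme1 had 21.8 and 24.0 TPM, the second highest level of the 51 genes by mean, and Psme2 had 15.1 and 13.3 TPM. Psme3 had 8.35 and 6.18 TPM. The mean of Psme1 and Psme2 exceeded Psme3 by 1.22 ± 0.26 on the log2 scale (SD, n = 2), in both libraries. In the alignment-free table the difference was 0.63 ± 0.02, with Psme3 at 18.2 and 14.7 TPM. Psme4, the nuclear activator PA200, had 5.52 and 5.70 TPM. Psme1 at chr14:55578123-55581529 and Psme2 at chr14:55587441-55591113 lie 5911 bases apart, whereas Psme3 lies at chr11:101316213-101323537.

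Psme2 has a close copy that limits its level. Psme2b, a gene at chr11:48945354-48946190 with a single annotated transcript, had 6.95 and 7.52 TPM. Its coding sequence differs from that of Psme2 at 5 of 717 bases, an identity of 99.3%. The 60 bases that hold the most of these differences, 3 of the 5, run from 484 to 543 of both coding sequences and are shown with the differing bases in capitals, since reads from identical stretches could come from both genes.
Psme2: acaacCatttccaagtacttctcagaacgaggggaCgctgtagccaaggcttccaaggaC
Psme2b: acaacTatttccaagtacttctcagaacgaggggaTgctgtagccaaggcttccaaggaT
The split of reads between Psme2 and Psme2b is therefore uncertain. Psme2 also depended on a transcript of 185 bases, Psme2-203, which held 5.14 TPM in replicate 1 on 18.5 expected counts and none in replicate 2. By counts Psme2 was lower in replicate 1, at 704 against 837 expected counts in replicate 2, while by TPM it was higher in replicate 1. With coding transcripts alone Psme2 had 8.08 and 8.49 TPM.

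**Figure D3:**
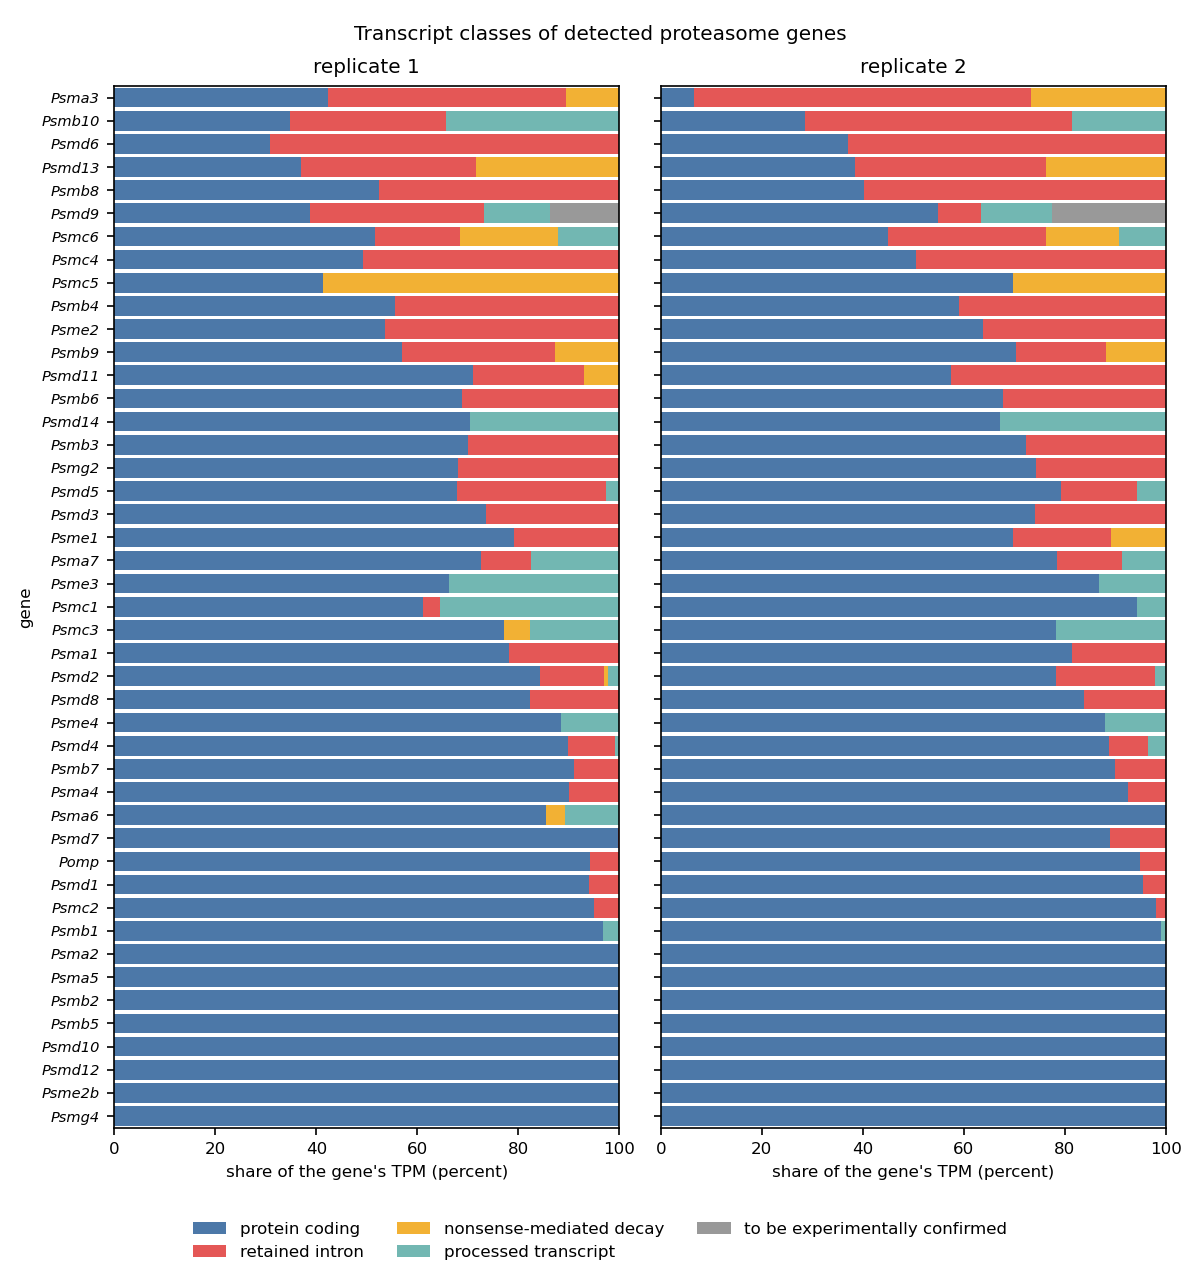
Share of each gene's TPM in percent by annotated transcript class for the 45 detected genes, with replicate 1 in the left panel and replicate 2 in the right panel and genes ordered by coding share from lowest at the top. Psma3, Psmb10, Psmd6 and Psmd13 are below 50% coding in both panels, and genes from Psma2 to Psmg4 at the bottom are wholly coding.

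Non-coding transcripts took no larger a share in the proteasome genes than in other genes. They made up at least 50% of the TPM in both libraries in 4 of the 45 detected genes (8.89%), against 19.5% of all detected protein-coding genes. The 4 genes were Psma3 (57.7% and 93.4%), Psmb10 (65.3% and 71.4%), the lid gene Psmd6 (69.2% and 63.0%) and the lid gene Psmd13 (63.1% and 61.5%). The median share of non-coding transcripts over the detected genes was 22.8% in replicate 1 and 20.9% in replicate 2, against 25.4% and 24.9% over all detected protein-coding genes. Among the 30 detected genes with an annotated retained-intron transcript, that class took a median of 24.1% and 19.5%, against 24.6% and 24.2% over 5110 protein-coding genes. Psmb8 and Psmb10 were above the median of the proteasome genes in both libraries, as were the constitutive Psmb3, Psmb4 and Psmb6. Psmb9, at 30.3% and 17.8%, was above that median in replicate 1 and below it in replicate 2. Psmb7, at 9.0% and 10.01%, was below it in both. At the other end, 8 detected genes had all of their level in coding transcripts in both libraries, namely Psma2, Psma5, Psmb2, Psmb5, Psmd10, Psmd12, Psme2b and Psmg4. Of these only Psma5 and Psmb2 have a non-coding transcript in the annotation, so for the others the share was fixed in advance. The share of all detected protein-coding genes that were wholly coding was not computed.

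Many of these genes share sequence with other genes, through copies elsewhere, overlaps at the same place or matches to many genes. Of the last kind, Pomp, Psmb11, Psmd3 and Psmd11 matched 33, 41, 54 and 190 other genes, of which 2, 1, 1 and 1 were pseudogenes. At 95% identity over 100 bases or more, 26 of the 51 genes matched a transcript of another gene, and 15 of them matched a pseudogene. The search was not run for all protein-coding genes, so whether these counts are unusual is not known. Outside Psma3 and Psma4 the pseudogene copies held at most 3.79% of the member's own count among genes with 10 counts or more, the value for Psmb5 and its copy Gm3375 in replicate 1. Psmb7, Psmc3, Psmc3ip and Psmd13 overlap a gene on the opposite strand, namely Nek6, Slc39a13, Mlx and Sirt3, as Psmb9 overlaps Tap1. Psmb8 matches the antisense gene Gm20496 over 262 bases, which had 2 and 1 expected counts. Psmd1 matches Htr2b over 253 bases, with 0 expected counts in both libraries, and Psmd9 matches the non-coding gene Gm26745 over 1865 bases, with 0 and 3 expected counts, all on the opposite strand. Without the strand setting of the counting, whether reads in those overlaps were assigned by strand is not known.

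The libraries agreed closely on the proteasome genes. Pearson's r of log2(TPM + 1) across the 51 genes was 0.979, and across the 8180 protein-coding genes that reached 1 TPM in either library it was 0.987, both as descriptions across genes, which are not independent replicates. The median log2 ratio of replicate 1 over replicate 2 was 0.08 for the proteasome genes and 0.08 for all those protein-coding genes. The call of a difference required 1 TPM in either library, 50 expected counts in the higher library and a (TPM + 1) fold of 2 or more. Of 48 proteasome genes that could be called, 0 were higher and 0 were lower in replicate 1, against 0.123% of protein-coding genes higher and 0.0368% lower. At a fold of 1.5, 1 gene was higher, Psmc1, and 0 were lower, against 1.13% and 0.466%.

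Psmc1, an ATPase of the base, had 10.2 TPM in replicate 1 and 6.24 TPM in replicate 2, a (TPM + 1) fold of 1.54. The difference sat in 1 transcript of 551 bases, Psmc1-203, which had 3.61 TPM in replicate 1 and none in replicate 2. The coding transcript Psmc1-201 had 6.22 and 5.88 TPM, and the count ratio of the whole gene, corrected for library size, was 1.13, with a 95% interval of 1.03 to 1.24. The next genes higher in replicate 1 were Psmg4, with a fold of 1.32, and Psme3, with a fold of 1.30. In Psme3 the coding level was 5.54 TPM in replicate 1 and 5.37 TPM in replicate 2, and the processed transcript Psme3-203 had 2.77 and 0.67 TPM.

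Lower in replicate 1 were Psmg1, Psmc2 and Psmd14. Psmg1 had 55 expected counts in replicate 1 and 112 in replicate 2, a count ratio of 0.466 with a 95% interval of 0.331 to 0.648. Psmc2 had 425 and 672 expected counts, a ratio of 0.60 with an interval of 0.530 to 0.678, and here the coding transcript Psmc2-201 carried the difference, with 2.42 and 4.05 TPM. Psmd14 had 505 and 661 expected counts, a ratio of 0.724 with an interval of 0.644 to 0.814. In these 3 genes the counts and the TPM pointed the same way.

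Over all 48 genes, the exact conditional binomial 95% interval of the count ratio lay above 1 for 7 genes (14.6%), against 24.5% of protein-coding genes, and below 1 for 13 genes (27.1%), against 17.7% of protein-coding genes. These intervals cover counting error only, and PCR reads without molecular identifiers are not independent molecules. For Psmb8 the ratio was 1.01, with an interval of 0.953 to 1.07, and for Psme1 it was 1.02, with an interval of 0.949 to 1.09. By (TPM + 1), Psmb8 was higher in replicate 1 by a fold of 1.13 and Psme1 was lower by a fold of 1.10. Both folds lay outside the count intervals of these genes. For Psmb7 the count ratio was 0.808, with an interval of 0.728 to 0.895.

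**Figure D4:**
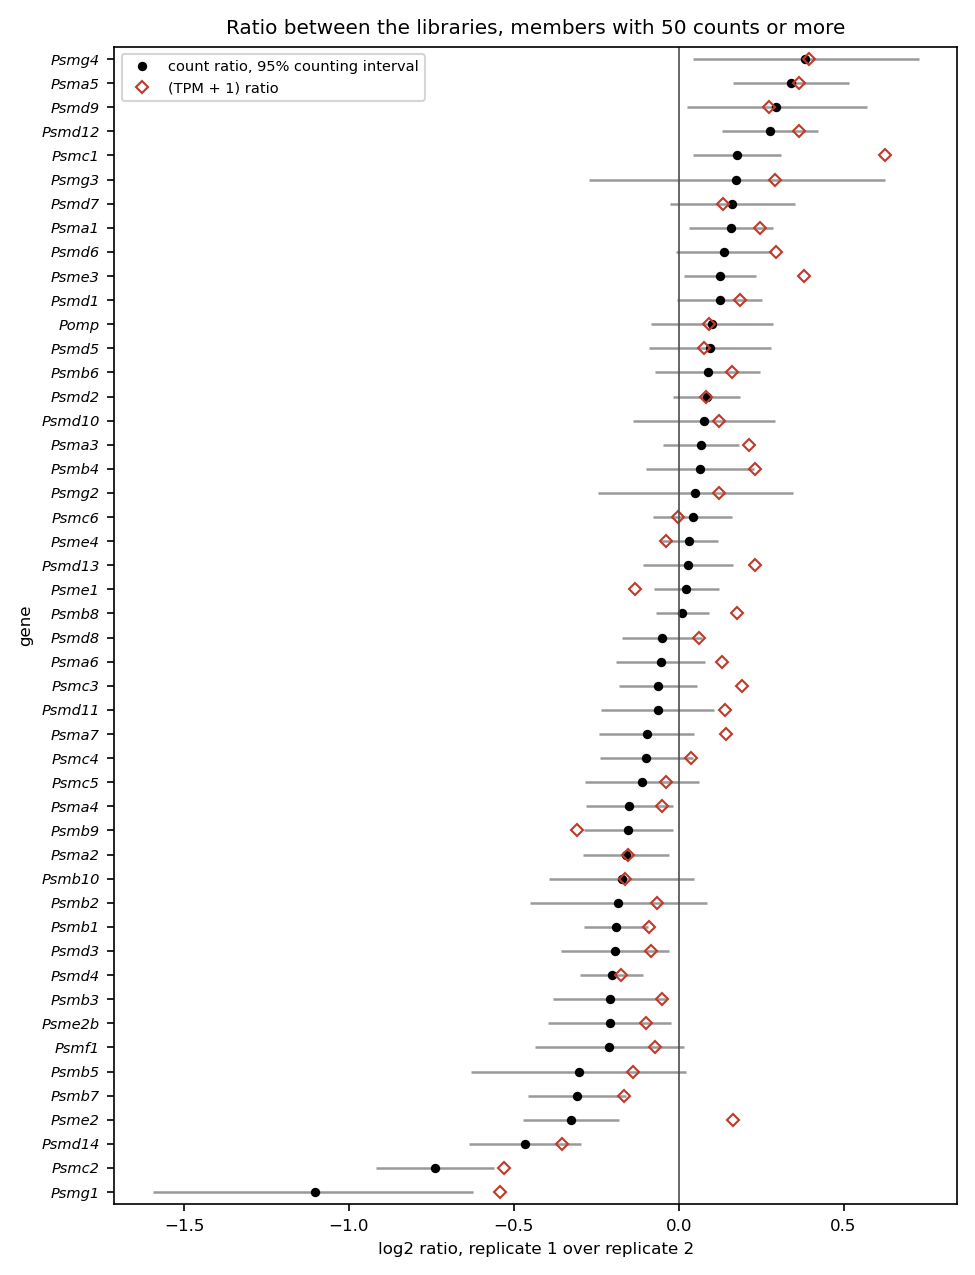
Log2 ratio of replicate 1 over replicate 2 for the 48 genes with at least 50 expected counts; filled circles are count ratios scaled to library size with grey lines for their 95% counting intervals, and open diamonds are (TPM + 1) ratios. Psmg1, Psmc2 and Psmd14 lie at the low end by counts. For many genes, among them Psmc1, Psme2, Psme3, Psmb8 and Psme1, the diamond lies outside the interval.

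The genes that work with the proteasome outside the naming rule were measured for 22 of 23 entries of a list of ubiquitin supply, receptors, deubiquitinases and regulators, and 21 were detected, with a median of 6.42 TPM in replicate 1 and 5.97 TPM in replicate 2. Among its highest genes were the ubiquitin genes Ubb, at 122 and 127 TPM, and Rps27a, at 51.8 and 51.1 TPM. The shuttle genes Ubqln2 and Ubqln4 were lowest, at 0.28 and 0.52 TPM and at 2.26 and 2.06 TPM. Adrm1, a ubiquitin receptor of the base, had 6.52 and 5.98 TPM and Sem1, a small lid subunit, had 8.48 and 9.07 TPM, both within the range of the Psmd genes. Nfe2l1, the factor that drives proteasome genes when the complex is inhibited, had 4.62 and 3.95 TPM, and its relative Nfe2l2 had 11.9 and 11.6 TPM.

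The 11 genes of the class I pathway and its regulators were all detected, with a median of 19.0 TPM in replicate 1 and 19.1 TPM in replicate 2. B2m, the light chain of class I molecules, had 251 and 206 TPM, the heavy chains H2-D1 and H2-K1 had 182 and 194 TPM and 155 and 165 TPM, and Irf1, an interferon-regulated factor known to act on immunoproteasome genes, had 30.8 and 31.2 TPM. The trimming peptidase Erap1 and the class I regulator Nlrc5 were lowest, at 5.38 and 4.80 TPM and at 5.53 and 5.43 TPM. Psmb8 and Psme1 stood above the median of this list, and Psmb10 stood beside its lowest members. H2-D1 and H2-K1 belong to a family of near-identical genes, so the division of reads between them is uncertain.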

How the data were processed

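The members and gene lists were chosen with earlier results of these data known. The authors deposited an expected count and a TPM per gene on GENCODE M21 and M4 (mm10), from transcriptome alignments, per the file list of each library. The interval bounds and effective lengths are also the authors', per the file headers. A transcript table gives each transcript's percent of its gene's TPM, per the file headers. A further deposited table of estimated counts and TPM names no alignment among its parents and is called alignment-free. No program or strand setting is named in the labels, file lists or headers. The M4 transcript tables were not used.

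Levels are M21 TPM as deposited, and log2 values use a pseudocount of 1. Named genes are the catalytic pairs, Psme1 to Psme3, the 3 highest, the lowest and every gene under a TPM of 1 in each group, the largest differences between libraries in each direction, and genes with 50% or more non-coding TPM in both libraries; in the pathway and class I lists they are the 4 highest and 2 lowest, of which some are not reported here. Further genes were named after their values were seen. Expected counts were rounded for counting intervals and for library factors from edgeR 4.0.16 (TMM) and DESeq2 1.42.0 under R 4.3.3. The fold call was tested on simulated data. Python 3.11.15, pandas 2.3.3, numpy 2.4.6, scipy 1.17.1, matplotlib 3.10.9, Biopython 1.88 and BLAST+ 2.17.0 were used. Sequences came from GENCODE M21 transcripts and RefSeq start sites (GRCm38.p6).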

Additional observations from a re-analysis of the deposited data

How the results depend on the processing

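No result changed sign under the alternatives run, while Psmb9 and Psmb6 differed in order between the libraries. The settings with protein-coding transcripts alone and without Psmc3ip, and the recomputation of each pair alone, were chosen after seeing the data. The log2 difference of inducible over constitutive subunits, 1.02 in the main table, was 0.62 in the M4 gene table, 0.96 in the alignment-free table, 1.16 with a pseudocount of 0.1, 1.16 with TPM rescaled to nuclear protein-coding genes and 0.27 for protein-coding transcripts, and 1.00 to 1.05 in single libraries. The M4 table gave Psmb10 a log2 difference from Psmb7 of -1.11, against -0.29 in the main table. The PA28 difference of 1.22 was 0.63 in the alignment-free table and 1.03 to 1.40 in single libraries. The median level of 2.82 became 2.95 (M4), 3.56 (alignment-free), 2.63 (pseudocount of 0.1), 6.17 (rescaled), 2.48 (coding transcripts) and 2.98 (detected genes only), and 2.81 to 2.84 in single libraries. Detected genes numbered 27 at a TPM of at least 5, 46 to 47 in single libraries and 43 to 49 under the other settings. The count of genes differing between the libraries was 1 under rescaling (Psmg1, lower in replicate 1, fold 2.01), 1 at a fold of 1.5 (Psmc1) and 1 for coding transcripts (Psma3), and 0 under the other settings. The median ratio between libraries kept its sign, at 0.002 with TMM factors and 0.009 with DESeq2 factors, where the median of all genes stood at -0.005 and 0.002. The cause of these shifts was not tested, apart from rescaling, which multiplies every level by construction. No paired analysis was possible because there is 1 group. With 2 libraries, an SD rests on 1 difference.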
